A study of Homo sapiens with 4 samples.

Results

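The genes described here encode histones and the proteins that mark, read and move nucleosomes, and they were followed through ac4C peaks of FaDu cells, a human cell line of hypopharyngeal squamous carcinoma. They were taken by symbol from the table of differential peaks: every gene whose symbol starts with HIST, H1F, H2AF, H3F, KDM, KMT, HDAC, SMARC, SETD, ARID, CBX, PHF, SIRT, PRMT or DNMT, or with CHD, BRD, ING or KAT and a digit. Of the 2483 genes in that table, 25 chosen by this rule are described, and each of the 25 had at least 1 peak in the peak list of a condition. The lists of both conditions together named 6723 genes. That table holds the peaks that the authors called different between the conditions, so a difference at each of these genes was part of how they were chosen and is not a finding.

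Cells of both conditions carried a lentiviral pLKO.1 shRNA and were selected with puromycin. The shNC cells carried a control shRNA, and the shNAT10 cells carried an shRNA against NAT10, the enzyme that places ac4C on RNA. Which of the shRNA sequences against NAT10 was used for these libraries is not given in the sources used here. In acRIP-seq, fragmented RNA is pulled down with an antibody against ac4C (IP) and set against RNA that was not pulled down (input). The 4 libraries were 1 IP and 1 input of each condition. Replicates were therefore lacking, no test between conditions was possible, and the depth is unknown.

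N4-acetylcytidine (ac4C) is an acetylated cytidine found in ribosomal RNA, transfer RNA and messenger RNA, where it has been tied to RNA stability and translation. Histones wrap DNA into nucleosomes. Acetyltransferases and methyltransferases add marks to histone tails, deacetylases and demethylases remove them, proteins with bromodomains, chromodomains or PHD fingers bind the marked tails, and ATP-driven remodelling complexes slide or evict nucleosomes. All of these proteins are made from messenger RNAs, and it is peaks on those messenger RNAs, not on chromatin, that were measured.

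For each peak the lists give a fold enrichment, the ratio of IP over input in that condition. The scaling between the conditions is not given, so fold enrichments are set side by side and each is placed within its own list by percentile, the share of that list's peaks lying below it. Positions are in GRCh38. NAT10 itself was listed in both conditions, with a fold enrichment of 6.91 (percentile 24.1) in shNC and 12 (percentile 49.4) in shNAT10. These are values of ac4C peaks on its messenger RNA and do not measure the knockdown. Of 15 epithelial markers looked for, 2 were in the table: DSP, a desmosomal protein, and KRT18, a keratin of simple epithelium. Of the fibroblast markers 1 of 5 was in the table (COL1A1, in the shNC list only), and of the immune and endothelial markers 0 of 4 and 0 of 3. A marker could be found only if it had a differential peak in that table. Its absence therefore does not measure its expression, and these counts are no check of cell type.

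Peaks were present in both lists for 16 of the 25 genes (64%), close to the 58.9% of all genes in the table. The share was 48.2% for all genes of the lists. It was 41.2% for 51 further chromatin genes without a row in the table, which are described below. For 11 genes (44%) a shNC peak and a shNAT10 peak shared at least 1 base: the histone genes H2AFX, H2AFY and H2AFZ, the remodelling genes CHD3, CHD8, SMARCA4, SMARCC1 and SMARCD2, the methyltransferase genes PRMT1 and SETD6, and the reader gene CBX6. The same held for 50.5% of all genes in the table and 41.6% of all genes in the lists. With only peaks of a fold enrichment of at least 4 the count was 7 (28%, against 45% of the table), since in CHD8, H2AFY, PRMT1 and SMARCA4 the overlap rests on a peak between 2.28 and 3.23. For 5 genes (20%) both lists held peaks that shared no base: ARID3A, KDM5B, SETD5, SMARCA5 and SMARCD3. The share of such genes was 8.38% in the table and 6.63% in the lists. This count depends on which peaks are taken: it was 8 (32%, against 8.22% of the table) with a fold enrichment of at least 4, 4 (16%, against 7.69%) with an FDR of at most 0.05, where SMARCD3 drops out, and 1 (4%, against 1.93%) with an FDR of at most 1e-10. That 1 gene was SMARCA4, which is not among the 5 and whose overlapping shNC peak drops out at that limit.

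The shNC list alone held 4 genes (16%), ARID1B, CBX1, KAT5 and PHF19, against 21.5% of the table and 25.8% of the lists. The shNAT10 list alone held 5 genes (20%), CHD2, HDAC7, KMT5A, PHF23 and SETDB1, against 19.6% of the table and 26% of the lists. Of the genes held by a single list, only CBX1, PHF19 and KMT5A had a peak with an FDR of at most 1e-10.

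The 25 genes held 29 of the 6403 shNC peaks and 30 of the 6417 shNAT10 peaks. A peak of the same gene in the other list was overlapped by 13 of the 29 shNC peaks (44.8%) and 13 of the 30 shNAT10 peaks (43.3%). For all genes of the table these shares were 55.6% in shNC and 57% in shNAT10, and for all listed peaks 51.4% and 51.3%. The median fold enrichment of the chromatin gene peaks was 16.9 (percentile 63.7) in shNC and 18.5 (percentile 66.9) in shNAT10, where the median of either whole list was 12.4. Peaks of the table's genes had medians of 13.8 and 13.5. The median peak of these 25 genes thus ranked above that of the whole list in both conditions. That did not hold for the 51 further chromatin genes described below, which have no row in the table. Their peaks had medians of 10.4 in shNC and 10.5 in shNAT10 (percentile 42.2 in both). An FDR above 0.05 was given for 2 of the 29 shNC peaks (6.9%) and 2 of the 30 shNAT10 peaks (6.67%), which are named below where they occur. The shares were 2.37% and 2.93% for peaks of the table's genes, and 8.12% and 8.32% for all listed peaks.

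**Figure D1:**
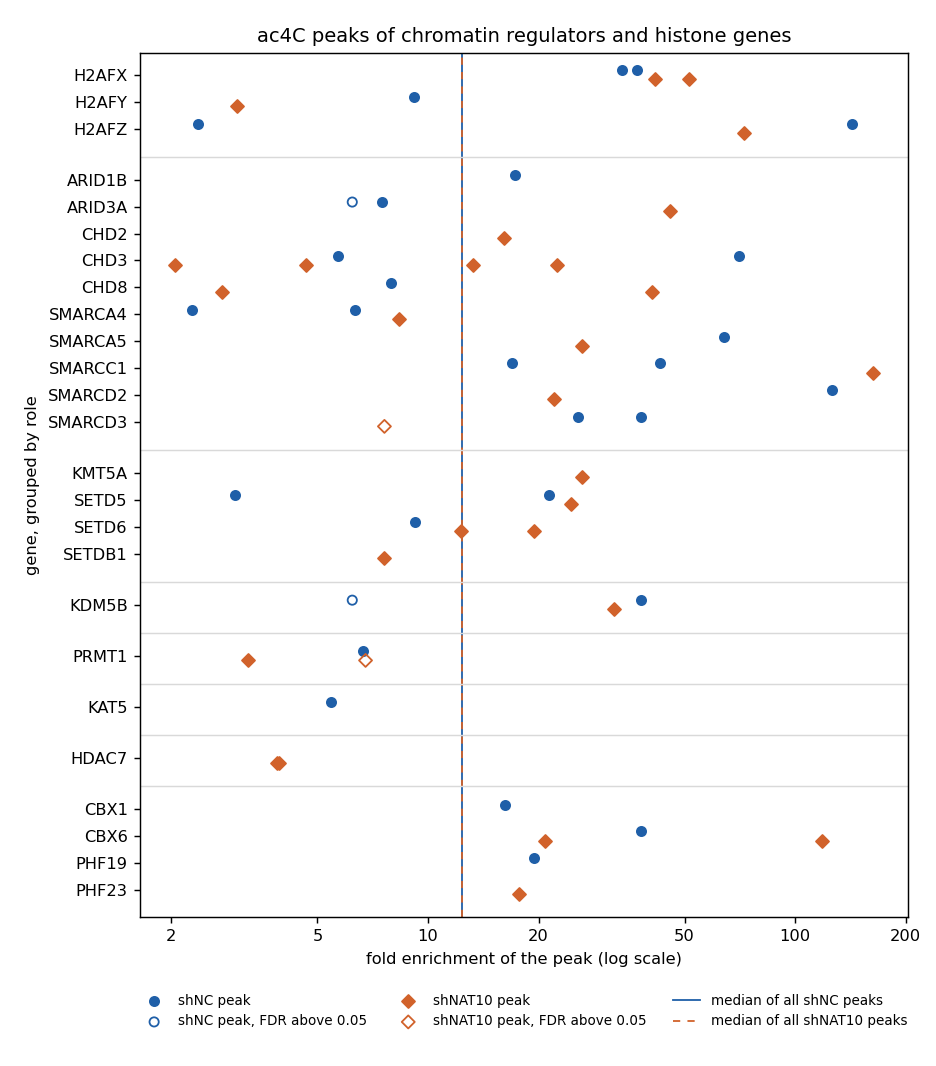
Fold enrichment (log axis) of every listed peak of the 25 genes, grouped by role, with shNC peaks as circles, shNAT10 peaks as diamonds and peaks with an FDR above 0.05 left open. Values run from 2.28 to 143 in shNC and from 2.05 to 163 in shNAT10, and the vertical lines mark the median of each whole list, 12.4 in both.

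The 3 histone genes encode variants of H2A, and all 3 were listed in both conditions with overlapping peaks. H2AFZ encodes H2A.Z, the variant that flanks transcription start sites. It had the highest shNC value of the 25 genes, a fold enrichment of 143 (percentile 99.1) at chr4:99948116-99948654, and 72.6 (percentile 96.3) at chr4:99948116-99948594 in shNAT10. Both peaks ended on the same 3′ base, and the shNAT10 peak was 479 nt long where the shNC peak was 539 nt. A second, weak H2AFZ peak of 180 nt stood in the shNC list alone, with a fold enrichment of 2.36. H2AFZ thus ranked among the strongest peaks of either list.

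H2AFX encodes H2A.X, which is phosphorylated beside DNA double-strand breaks. Each list held 2 peaks for it that overlapped each other, so they are not separate regions. The shNC peaks had fold enrichments of 33.8 and 37.1 and covered 597 and 538 nt. The shNAT10 peaks had fold enrichments of 51.4 and 41.4 and covered 329 nt each. H2AFX was higher in rank in shNAT10 (top percentile 92.7, against 86.4 in shNC) over a shorter stretch of RNA.

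H2AFY encodes macroH2A1, a large variant of repressed chromatin. Its single peak was 241 nt long in each list, at chr5:135334530-135334770 in shNC and chr5:135334560-135334800 in shNAT10. The fold enrichment was 9.16 (percentile 37) in shNC and 3.01 (percentile 3.47) in shNAT10. Its shNAT10 peak was thus among the weakest in that list. Across the 3 histone genes the peaks had median lengths of 538 nt for shNC and 329 nt for shNAT10, where the other 22 genes had medians of 226 and 211 nt. The histone medians rest on few peaks and count both mutually overlapping H2AFX peaks of each list.

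**Figure D2:**
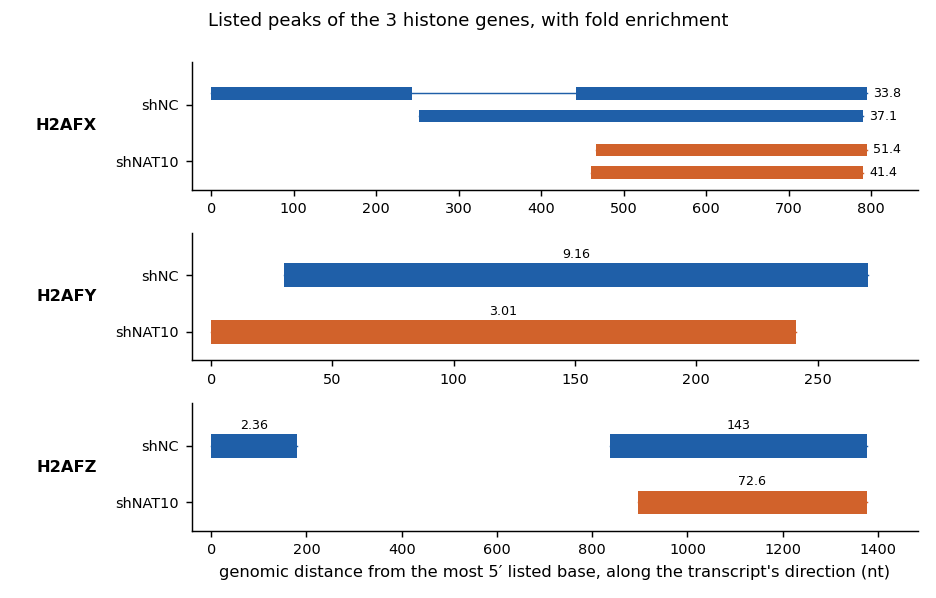
Listed peaks of H2AFX, H2AFY and H2AFZ along the direction of transcription, with distance in nt from the most 5′ listed base, shNC above and shNAT10 below, boxes for exonic blocks and the fold enrichment printed at each peak. The strongest H2AFZ peak, at 143 in shNC, faces a peak of 72.6 in shNAT10, and the H2AFX peaks are 329 nt in shNAT10 against 597 and 538 nt in shNC.

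Histones that are made in S phase come from clustered genes. RefSeq has 70 protein-coding genes of this kind, and in either list 0 of the 70 had a peak within its RefSeq span. Within 20 kb of these spans lay 3 shNC peaks and 1 shNAT10 peak, all of gene identifiers that the files pair with no symbol, so transcripts longer than the RefSeq spans may still be listed. The same share over all protein-coding genes is not given here, so the 0 of 70 cannot be judged against it.

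Genes of the SMARC, CHD and ARID families were the largest group, with 10 of the 25 (ARID3A, not a remodelling subunit, among them): 1 in the shNC list only, 5 in both with overlap, 3 in both without overlap and 1 in the shNAT10 list only. SMARCD2, an accessory subunit of the SWI/SNF (BAF) complexes, had a fold enrichment of 126 (percentile 98.9) in shNC at chr17:63832141-63832619 and of 22.1 (percentile 73.1) in shNAT10 at chr17:63832141-63832738. The peaks shared their 3′ end, and the one with the lower value was the longer, 598 nt against 479 nt. SMARCC1, a scaffold subunit of the same complexes, had the opposite order. Its shNAT10 peak at chr3:47585961-47586231 had the highest fold enrichment of the 25 genes in that list, 163 (percentile 99.6). The overlapping shNC peak had 16.9 (percentile 63.7), and a second shNC peak 329 nt away had 42.8.

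SMARCA4 encodes BRG1, an ATPase of these complexes. It had shNC peaks with fold enrichments of 2.28 and 6.34 and a shNAT10 peak of 8.36 that crossed 4 exonic blocks, all low in rank. SMARCD3, another accessory subunit, had shNC peaks of 38.0 and 25.6, and between them a shNAT10 peak of 7.61 with an FDR of 1, 59 nt from the nearer one. ARID1B, the DNA-binding subunit of BAF, had 1 peak in shNC, with a fold enrichment of 17.3. The 5 genes of SWI/SNF subunits thus included a gene high in shNC (SMARCD2), a gene high in shNAT10 (SMARCC1) and no order common to all.

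SMARCA5 encodes the ATPase of the ISWI complexes. Its shNC peak at chr4:143553174-143553414 had a fold enrichment of 64.2 (percentile 94.7), and its shNAT10 peak at chr4:143553803-143553983 had 26.2 (percentile 78.1), 388 nt further towards the 3′ end. ARID3A is a transcription factor that binds AT-rich DNA. It had shNC peaks of 7.48 and 6.22, the latter with an FDR of 1, and a shNAT10 peak of 45.6 (percentile 91) between them, 209 nt from the nearer one.

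The CHD genes encode chromodomain remodelling ATPases. CHD3, a core ATPase of the NuRD deacetylase complex, had 2 shNC peaks, the stronger of 929 nt at chr17:7911772-7912700 with a fold enrichment of 70.4 (percentile 95.5) and the other with 5.67. Its 4 shNAT10 peaks had fold enrichments of 22.4, 13.3, 4.65 and 2.05. The peak that overlapped the 929 nt shNC peak was 300 nt long, with 13.3, and the highest shNAT10 value came from a peak 4484 nt away from any shNC peak. CHD8 had the same 150 nt peak in both lists, with 7.94 in shNC and 2.75 in shNAT10, and a shNAT10 peak of 40.7 (percentile 89) 448 nt away. CHD2 was listed in shNAT10 only, with 16.1.

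Writers of histone methylation numbered 5. Of the 4 genes in the KMT and SETD families, 2 were listed in shNAT10 only. KMT5A, which monomethylates histone H4, had a peak of 390 nt with a fold enrichment of 26.2 (percentile 78.1), the highest of the genes found in a single list. SETDB1, which places a repressive methyl mark on histone H3, had 7.61. SETD6, which also methylates proteins other than histones, had overlapping peaks of 9.23 in shNC and 12.3 in shNAT10, and a separate shNAT10 peak of 19.4. SETD5, a SET-domain protein, had shNC peaks of 2.98 and 21.4, and a shNAT10 peak of 24.5 that lay 1077 nt closer to the 5′ end. PRMT1, the main arginine methyltransferase of the asymmetric type, had a 571 nt peak over 4 exonic blocks in shNC with 6.64 and a 271 nt peak over 3 blocks in shNAT10 with 3.23. A further shNAT10 peak of PRMT1 had 6.76 with an FDR of 1.

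KDM5B is a demethylase of active histone H3 marks. Its shNC peaks had fold enrichments of 38.0 and 6.22, the weaker with an FDR of 1, and its shNAT10 peak had 32.1. The gap between the shNAT10 peak and the nearer shNC peak was 179 nt, and between it and the stronger one 687 nt. Acetylation genes were few. KAT5, the acetyltransferase Tip60, was listed in shNC only with 5.44, and HDAC7, a class IIa deacetylase, was listed in shNAT10 only with 3.89 and 3.94. All 3 of these peaks ranked low, at percentiles of 7.46 to 15.3.

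The readers and PHD-finger proteins numbered 4. CBX6, a Polycomb chromodomain protein, had a fold enrichment of 118 (percentile 98.9) at chr22:38861480-38861750 in shNAT10 and of 38.0 (percentile 87) at chr22:38861480-38861869 in shNC. The peaks ended on the same 3′ base, and the shNAT10 peak was 271 nt long against 390 nt. A second shNAT10 peak of CBX6 had 20.8.

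The other readers were each found in a single list. CBX1, the heterochromatin protein HP1β, had 16.2 in shNC, and PHF19, a Polycomb-like partner of PRC2, had 19.5 in shNC over 3 exonic blocks. PHF23, a PHD-finger protein, had 17.7 in shNAT10. Their percentiles ran from 62.4 to 68.9, somewhat above the middle of the lists.

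**Figure D3:**
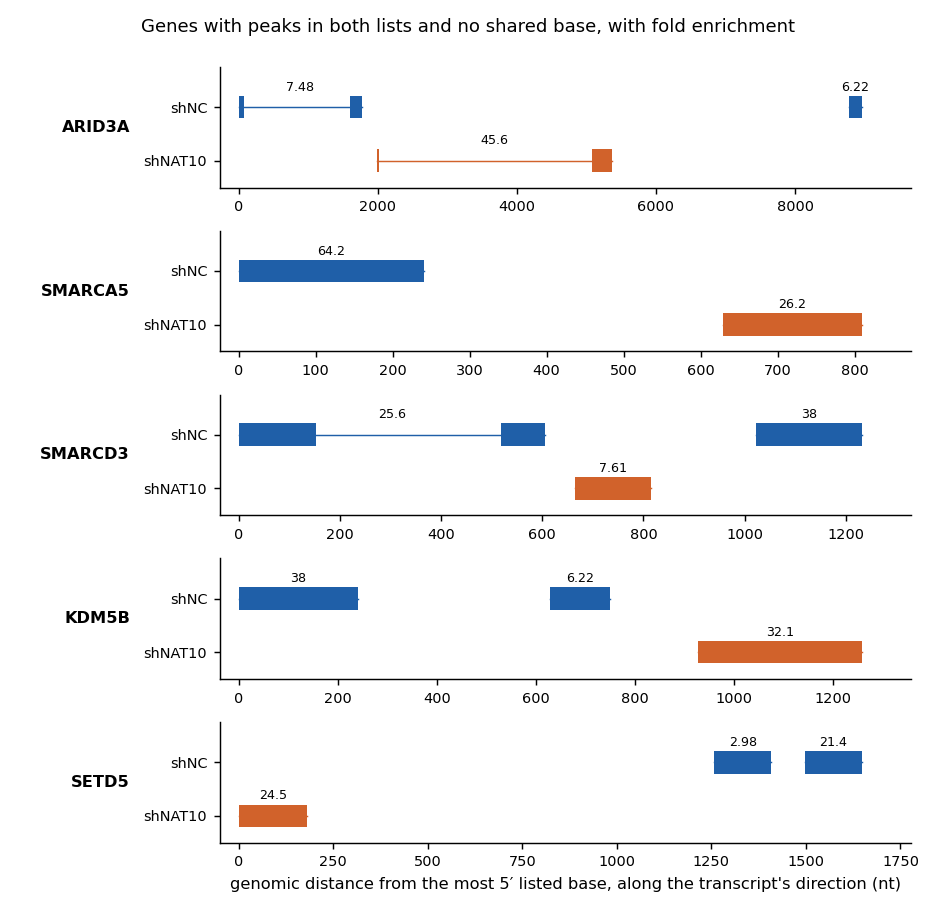
Listed peaks of the 5 genes with peaks in both lists that share no base, along the direction of transcription, with distance in nt from the most 5′ listed base (each gene on its own scale), boxes for exonic blocks, thin lines for introns within a peak and the fold enrichment printed at each peak. The nearest peaks of the lists were 59 nt apart in SMARCD3, 179 in KDM5B, 209 in ARID3A, 388 in SMARCA5 and 1077 in SETD5.

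Among the 11 genes with overlapping peaks, the overlapping stretch of RNA was longer in shNC for 6, equal for 2 and shorter for 3 (6 of 11 is 54.5%, against 49.6% of the 1254 such genes in the table). Median lengths came to 390 nt for shNC and 271 nt for shNAT10, against 360 and 359 nt in the table. CHD3 went from 1139 to 451 nt, H2AFX from 787 to 334 nt and PRMT1 from 571 to 271 nt. SMARCA4, SMARCC1 and SMARCD2 went the other way, from 121 to 301 nt, from 211 to 271 nt and from 479 to 598 nt. The percentile of fold enrichment was higher in shNC for 6 of the 11 genes (54.5%, against 53.1% in the table). These shares are close to those of the table, and the difference in lengths was not tested.

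Many fold enrichments are shared by unrelated peaks. A value held by at least 10 peaks of its list was found for 11 of the 29 shNC peaks (37.9%, against 58.3% of the list) and 17 of the 30 shNAT10 peaks (56.7%, against 59.5%). In shNC, CBX6, KDM5B and SMARCD3 all had 38.0, a value held by 19 peaks, and the peaks of ARID3A and KDM5B with an FDR of 1 both had 6.22, the most frequent value of the list with 154 peaks. Such equal values carry no order.

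The table of differential peaks holds 35 rows for the 25 genes, of 2807 in all, and classes each by where it lies in its transcript. The 3′-UTR held 25 of the 35 (71.4%, against 56.1% of all rows), the coding sequence (CDS) 5 (14.3%, against 19.4%), and 5 (14.3%, against 23.7%) were classed as exon. The 5′-UTR and stop codon classes held 0, and they were rare in the table too (0.677% and 0.178%). All 4 rows of histone genes were classed as exon (H2AFX with 2, H2AFY and H2AFZ). Of the other 31 rows, 25 were in the 3′-UTR (80.6%), 5 in the CDS (ARID3A with 2, PHF19, PRMT1 and SMARCA4) and 1 in the exon class (HDAC7).

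The table also lists positions of the motif CXXCXXCXXCXX, a repeat of cytidine followed by any pair of bases (X) that has been tied to ac4C. At least 1 site was listed for 23 of the 35 rows (65.7%, against 60.9% of all rows). Sites that fell in an exonic block of the peak, and not in an intron that it spans, were found for 22 rows (62.9%, against 57.9%). The 35 rows held 66 listed sites, of which 58 were exonic. In these totals a site within both overlapping H2AFX rows is counted in each. The largest number was 8, in the CDS peak of ARID3A that overlapped a shNAT10 peak. H2AFX had 7 sites in each of its overlapping rows, of which 6 and 7 were exonic, while H2AFY and H2AFZ had 0. The H2AFZ peak thus had the highest shNC value of the group with no listed site.

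All 5 CDS rows had a listed site, 26 in all, but the 7 of PHF19 lay in introns between its exonic blocks. The 19 exonic sites came to 1.15 per 100 nt of exonic length, against 0.528 in all CDS rows of the table. Without ARID3A the rate was 0.613 over the other 3 rows. In the 3′-UTR, 15 of the 25 rows (60%, against 56.6%) had a site, with 0.408 exonic sites per 100 nt against 0.444. PRMT1 had 6 sites, all exonic. KDM5B, SETD6, SMARCA5 and SMARCC1 had 0 sites in any row. Among the genes found in the shNC list only, ARID1B and CBX1 had 0 sites and KAT5 had 1, beside the intronic sites of PHF19. Each of the genes found in the shNAT10 list only had a site: 4 in KMT5A, 2 in HDAC7, and 1 each in CHD2, PHF23 and SETDB1. By listed sites, whether exonic or not, PHF19 also counts as a gene with a site. Of all rows in the table, 60.9% had a listed site. The share among all genes found in a single list was not computed. These are few genes, and the difference was not tested.

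**Figure D4:**
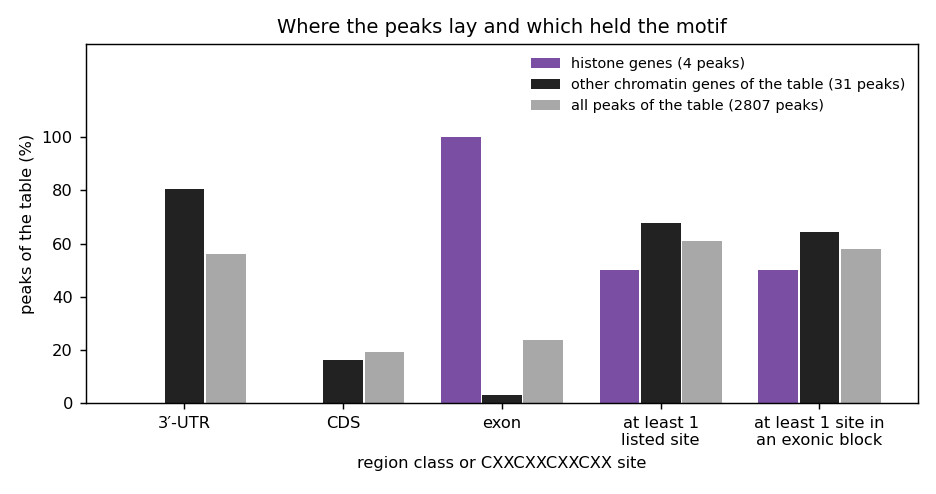
Share of peaks of the table (%) in the region classes 3′-UTR, CDS and exon, with at least 1 listed CXXCXXCXXCXX site, and with at least 1 such site in an exonic block, for the 4 histone gene peaks, the 31 peaks of the other 22 chromatin genes and all 2807 peaks. The histone genes reach 100% in the exon class and the other chromatin genes 80.6% in the 3′-UTR, against 23.7% and 56.1% of all peaks.

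Genes outside the symbol rule showed how other chromatin genes of the table were listed. Of 93 genes for histone chaperones, high-mobility-group proteins and further subunits of chromatin complexes, 36 were in the table. Of these, 24 (66.7%, against 50.5% of the table) were in both lists with overlap and 4 (11.1%, against 8.38%) in both without overlap, BAZ2A, BCL7A, DPF2 and EP400. In shNC only were 2 (5.56%, against 21.5%), HMGB2 and NCOA3, and in shNAT10 only 6 (16.7%, against 19.6%), EHMT2, MTA1, NCOA1, SIN3A, SUV39H2 and UHRF1. The NuRD subunit MBD3 had top fold enrichments of 63.5 in shNC and 38.2 in shNAT10. RBBP7, a histone-binding subunit of several complexes, had 93.2 and 8.93. HMGB1, an abundant architectural protein, had 48.4 and 81.2.

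A further 51 chromatin genes of the same symbol families had peaks in the lists but no row in the table, and were named by the RefSeq gene whose span alone held their peaks. By the same step the symbol matched for 96.9% of 2065 coding genes of the table that have one. Of the 51 genes, 20 (39.2%) were in the shNC list only, 18 (35.3%) in both with overlap, 3 (5.88%) in both without overlap and 10 (19.6%) in the shNAT10 list only. All genes of the lists without a row in the table stood at 28.3%, 36.3%, 5.61% and 29.7%. For the 51 genes, 10 of 52 shNC peaks (19.2%) and 2 of 39 shNAT10 peaks (5.13%) had an FDR above 0.05. The shares for all listed peaks were 8.12% and 8.32%. The counts of the 51 genes by list were not recomputed without such peaks.

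Of the 9 further lysine demethylase genes, 5 were in shNC only (KDM2B, KDM3B, KDM4A, KDM4B and KDM5A), 3 in shNAT10 only (KDM1A, KDM1B and KDM2A) and 1, KDM5C, in both without overlap. Of the 5 further acetyltransferase genes, 3 were in shNC only (KAT14, KAT6B and KAT7), while KAT2A and KAT6A were in both. KAT6A had fold enrichments of 66.3 in shNC and 23.7 in shNAT10. DNMT3B, a DNA methyltransferase, was in shNC only with 11.7. All 5 further histone genes were in both lists with overlap, as were the 3 of the table. Their top fold enrichments in shNC and shNAT10 were 64.7 and 102 for H1-10, 3.87 and 6.46 for H2AZ2, 7.49 and 10.5 for H3-3A, 27.9 and 72.8 for H3-3B, and 28.3 and 128 for MACROH2A2. For each of these 5 the shNAT10 value was the higher. Of the 3 histone genes of the table, H2AFX had the higher value in shNAT10 and H2AFY and H2AFZ in shNC. The order was the same by percentile. Among all genes of the lists with overlapping peaks, the percentile of those peaks was higher in shNAT10 for 1349 of 2795. Among the further genes with overlap it was higher for 9 of 18. These counts take overlapping peaks only, while the histone values are of each gene's top peak, so the measures differ. The histone genes are few, each condition had 1 IP library, and the difference was not tested.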

How the data were processed

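Peaks of acRIP-seq were analysed in FaDu cells with shNC or shNAT10, with 1 IP and 1 input library per condition. Lists were assigned to conditions by the prefix that they have in common with the library titles. Per the labels, the processing notes name cutadapt 2.5, HISAT2 2.1.0, HOMER 4.10.4 and featureCounts 1.6.3, and the build GRCh38. The peak caller, its thresholds and the scaling are not given in the sources used here. In the deposited lists the authors gave, for every peak, a linear ratio of IP to input (fold enrichment), a p-value and the log10 of an FDR. Symbols, region classes and motif sites came from the deposited table of differential peaks. Its 3 columns of the authors' own comparison (log2 fold change, p-value and FDR) were not used.

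Genes were joined by Ensembl identifier. Peaks overlapped where exonic blocks of the same gene and strand shared at least 1 bp. Percentiles are mid-ranks within a list. Genes without a symbol were matched by position to RefSeq spans (GRCh38.p14), without strand. The rule found 28 genes, of which 3 are not reported here and entered no count of the group. Every other gene was named, with all its fold enrichments. RefSeq held all 25 symbols, 3 of them as older names: H2AFX is H2AX, H2AFY is MACROH2A1 and H2AFZ is H2AZ1. The genes and lists were chosen with earlier results of these data known. A comparison of protein sequences was planned and not made, since no protein sequences were used here, and no peak sequence is shown. The overlap step was tested on simulated data. Software was Python 3.11.15, pandas 2.3.3, numpy 2.4.6 and matplotlib 3.10.9.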

Additional observations from a re-analysis of the deposited data

How the results depend on the processing

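Each of 12 results (the 4 counts of genes by list, the overlap shares, medians of fold enrichment and of length, and shares of 3′-UTR peaks and of peaks with a site) was recomputed under other settings, giving 45 values. Of these, 38 stayed within 1.5 times the count or median, or within the 95% Wilson interval of the share. Some of the 38 could not have moved. Adding current histone symbols brought in no further gene, so its 4 counts were bound to stay. Leaving out ARID3A could change only the count of genes in both lists without overlap. With only peaks of a fold enrichment of at least 4, genes in both lists with overlap fell from 11 to 7 and those without overlap rose from 5 to 8. With only peaks of an FDR of at most 1e-10, genes in both lists without overlap fell from 5 to 1 and genes in the shNAT10 list only from 5 to 3. The genes behind these counts changed too. The 1 was SMARCA4, and the 3 were ARID3A, CHD8 and KMT5A. The shNC list only stayed at 4, but with CBX1, PHF19, SMARCA5 and SMARCD3. At an FDR of at most 0.05 there were 4 without overlap. With any peak of the same gene counted as shared, the overlap share was 86.2% in shNC and 80% in shNAT10. Requiring 2 listed sites lowered the share of peaks with a site to 34.3%. Counting the mutually overlapping H2AFX peaks once and counting exonic sites only were chosen after seeing the data and left the values within these limits. Leaving out ARID3A also left 4 genes in both lists without overlap. No paired analysis was possible because there is a single IP library for shNC and for shNAT10. Depth is unknown, so a missing peak and thin coverage cannot be told apart.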
